A study of Mus musculus with 4 samples.

Results

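Glycolysis and hypoxia genes were followed in total thymocytes, cells of the mouse thymus that were not sorted and are mostly developing T cells. The group was defined by name as 33 genes for glucose and lactate transport, glycolytic enzymes, the hypoxia-inducible factor (HIF) pathway and HIF target genes. Each gene was read from its brightest Affymetrix probe set, the set of short probes that reports a transcript. Probe sets whose annotation gives several genes were not used to name one. Of the 33 genes, 30 had an ordinary probe set of their own, 27 passed the filter on dim probe sets and were tested, and Slc16a3, Aldoc and Vegfa fell below it. Gapdh was read only from Affymetrix control probe sets, which were not tested, and Gpi1 and Eno1 were not analysed here. The whole set named 18193 genes, of which 10235 were tested.

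The study set 2 Atg16l1 hypomorph mice, which carry an allele that lowers the function of this autophagy gene, against 2 control mice, with 1 array per mouse. All 4 mice were 7 weeks old, each group held 1 male and 1 female, and sex was not assigned to single arrays. The animals were independent, so the replicates are single mice. The p-values rest on each gene's spread between mice of a group, moderated towards that of other genes of similar signal. That spread also holds any difference between the sexes. The controls are described as wild-type, and the sources used here name neither the strain nor how the allele was made. With 2 arrays per group, the number of arrays limits every value, and an exact permutation test could not give a p below 0.333.

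Glycolysis splits glucose into pyruvate in the cytosol. Lactate dehydrogenase and pyruvate dehydrogenase kinase steer that pyruvate towards lactate and away from oxidation in the mitochondria. HIF is a pair of proteins, an oxygen-regulated alpha subunit and its partner ARNT, that raises the transcription of most glycolytic genes when oxygen is low. When oxygen is present, prolyl hydroxylases of the EGLN family mark the alpha subunit and the VHL protein directs its destruction. In the thymus, dividing precursors take up more glucose than the small resting double-positive cells, which make up most of the organ.

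HIF binds DNA at a short core that reads ACGTG or GCGTG. Both cores were searched on both strands in the 250 bases before 1 start of each gene, with the windows taken from RefSeq (build GRCm38.p6). Where several starts were listed, as for 12 of the genes, Pdk1 among them, the outermost was used, and starts that were not listed may lie further out. A match of CACGTG counts on each strand, and neighbouring matches may overlap. Windows were at hand for 32 of the 33 genes, all but Slc2a3, and 24 of them (75%) held at least 1 core, against 38.6% of the 27025 windows of all genes. Among the tested genes, 15 of the 21 with a window that lay above the median change of all tested genes held a core, and so did all 5 that lay below it. The windows of 4 HIF-induced genes are shown because they stood at both ends of the order of changes reported below, Ankrd37 and Pdk1 near the top and P4ha1 and Bnip3 near the bottom. Capitals mark the cores on either strand, and each sequence runs 5′ to 3′ towards its gene.
Ankrd37 (chr8:45999851-46000100, - strand): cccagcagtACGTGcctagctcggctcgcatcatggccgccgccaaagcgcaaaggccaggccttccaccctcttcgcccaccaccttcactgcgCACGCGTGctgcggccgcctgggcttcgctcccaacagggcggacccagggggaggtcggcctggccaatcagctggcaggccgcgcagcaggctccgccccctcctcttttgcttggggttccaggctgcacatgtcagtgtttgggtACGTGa
Pdk1 (chr2:71872974-71873223, + strand): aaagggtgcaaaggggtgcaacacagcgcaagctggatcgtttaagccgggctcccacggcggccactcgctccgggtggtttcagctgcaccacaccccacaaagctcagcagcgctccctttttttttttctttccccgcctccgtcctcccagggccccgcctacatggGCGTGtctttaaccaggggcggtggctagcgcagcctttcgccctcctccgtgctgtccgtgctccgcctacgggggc
P4ha1 (chr10:59323046-59323295, + strand): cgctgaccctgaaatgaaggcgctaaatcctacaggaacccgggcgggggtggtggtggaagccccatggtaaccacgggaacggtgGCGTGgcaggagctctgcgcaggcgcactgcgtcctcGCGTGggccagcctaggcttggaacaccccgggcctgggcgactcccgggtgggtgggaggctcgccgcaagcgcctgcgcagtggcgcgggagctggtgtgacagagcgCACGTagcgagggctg
Bnip3 (chr7:138909507-138909756, - strand): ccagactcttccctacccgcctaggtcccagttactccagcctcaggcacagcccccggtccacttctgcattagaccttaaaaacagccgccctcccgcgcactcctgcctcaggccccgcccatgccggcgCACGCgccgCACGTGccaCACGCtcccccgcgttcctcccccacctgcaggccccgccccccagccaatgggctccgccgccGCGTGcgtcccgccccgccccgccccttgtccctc
The Ankrd37 window held 4 matches, Pdk1 1, P4ha1 3 and Bnip3 5. A match is a description of these letters and not evidence of binding.

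Total thymocytes and the genotype labels were checked first. Atg16l1 was lower in the hypomorphs, at centred log2 signals of 6.39 and 6.26 against 7.81 and 7.99 in the controls. Its log2 change was -1.57 ± 0.18 (SE), which limma called at an adjusted p of 0.0142, and the call was lost without either control array (adjusted p 0.0751 and 0.0893). All 8 thymocyte markers that could be read (Cd3e, Cd4, Cd8a, Cd8b1, Rag1, Ptcra, Thy1 and Bcl11b) were bright enough to be tested. The arrays differed in brightness, with median deposited signals of 23.5 to 38.4, so values below are log2 signals after centring every array on 1 common median. Even so, the log2 change (hypomorph minus control) of the 10235 tested genes had a median of 0.21, and changes of the genes are also given relative to that median.

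No glycolysis or hypoxia gene passed the test at an adjusted p under 0.05, where limma called 14 of all 22519 tested probe sets (0.0622%). Their changes were small, and all 27 tested lay above 0 with this centring, while 4 (Hk2, Pfkfb4, Bnip3 and P4ha1) lay below 0 with quantile normalization. Their median log2 change, over the 27 tested, was 0.32, which is 0.11 above that of all tested genes, and 22 of them lay above it and 5 below. All 27 changes lay between 0.03 (Hk2) and 0.54 (Arnt), while the 10th and 90th percentiles of all tested genes were -0.11 and 0.46. An unadjusted p under 0.05 was found for 11 of the 27 (40.7%), all higher in the hypomorphs, against 18.2% of all tested genes that were higher and 0.889% that were lower at that level. For 21 of the 27 (77.8%) both hypomorph arrays lay above both control arrays, and for none below, where the same held for 51.7% and 4.90% of all tested genes.

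These counts moved with the scaling of the arrays. With quantile normalization, which gives all arrays the same distribution, both hypomorph arrays lay above both controls for 9 of the 27 genes and below for none, against 21.1% and 15.6% of all tested genes, and none had an unadjusted p under 0.05, against 3.40% of genes that were higher. With centring on tested probe sets alone the hypomorph arrays lay above for 13 and below for 1 (Bnip3), against 24.1% and 14.5% of all tested genes, and 1 gene was higher at an unadjusted p under 0.05, against 4.35%. The place of the genes above the median moved less, at 21 of 27 with quantile normalization and a median of 0.07 relative to all tested genes. Without hypomorph replicate 1 that median was 0.06, with 7 of 27 genes below the median of all, and without the filter on dim probe sets, when Slc16a3, Aldoc and Vegfa entered, it was 0.17.

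**Figure D1:**
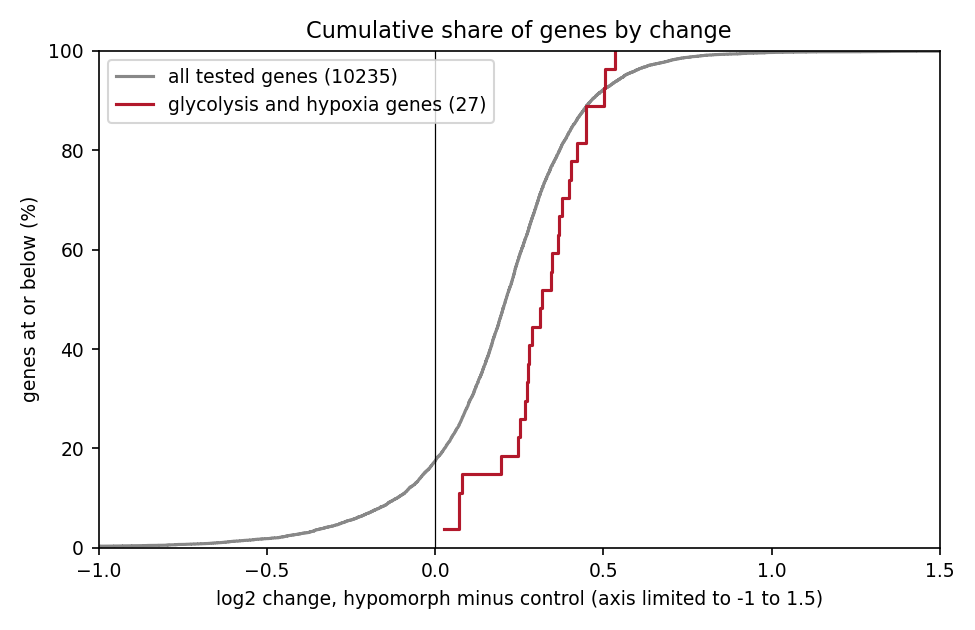
Cumulative percentage of genes (vertical axis) at or below each log2 change, hypomorph minus control (horizontal axis), for the 10235 tested genes (grey) and the 27 tested glycolysis and hypoxia genes (red). The red line starts at 0.03 and ends at 0.54, lies to the right of the grey line over most of that span and crosses it near the top.

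Each hypomorph array could be set against each control array, in comparisons that share arrays and are not independent. In the 4 comparisons the glycolysis and hypoxia genes had a median difference of 0.23 to 0.37, against 0.12 to 0.31 for all tested genes, so that they stood 0.06 to 0.12 above them in every comparison. The smallest of these gaps was between hypomorph replicate 2 and control replicate 1. The highest of the 4 arrays was a hypomorph array for all 27 genes, 13 times replicate 1 and 14 times replicate 2, where these arrays were the highest for 27.6% and 53.9% of all tested genes. Control replicate 1 was the lowest array for 20 of the 27, as it was for 55.8% of all tested genes.

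**Figure D2:**
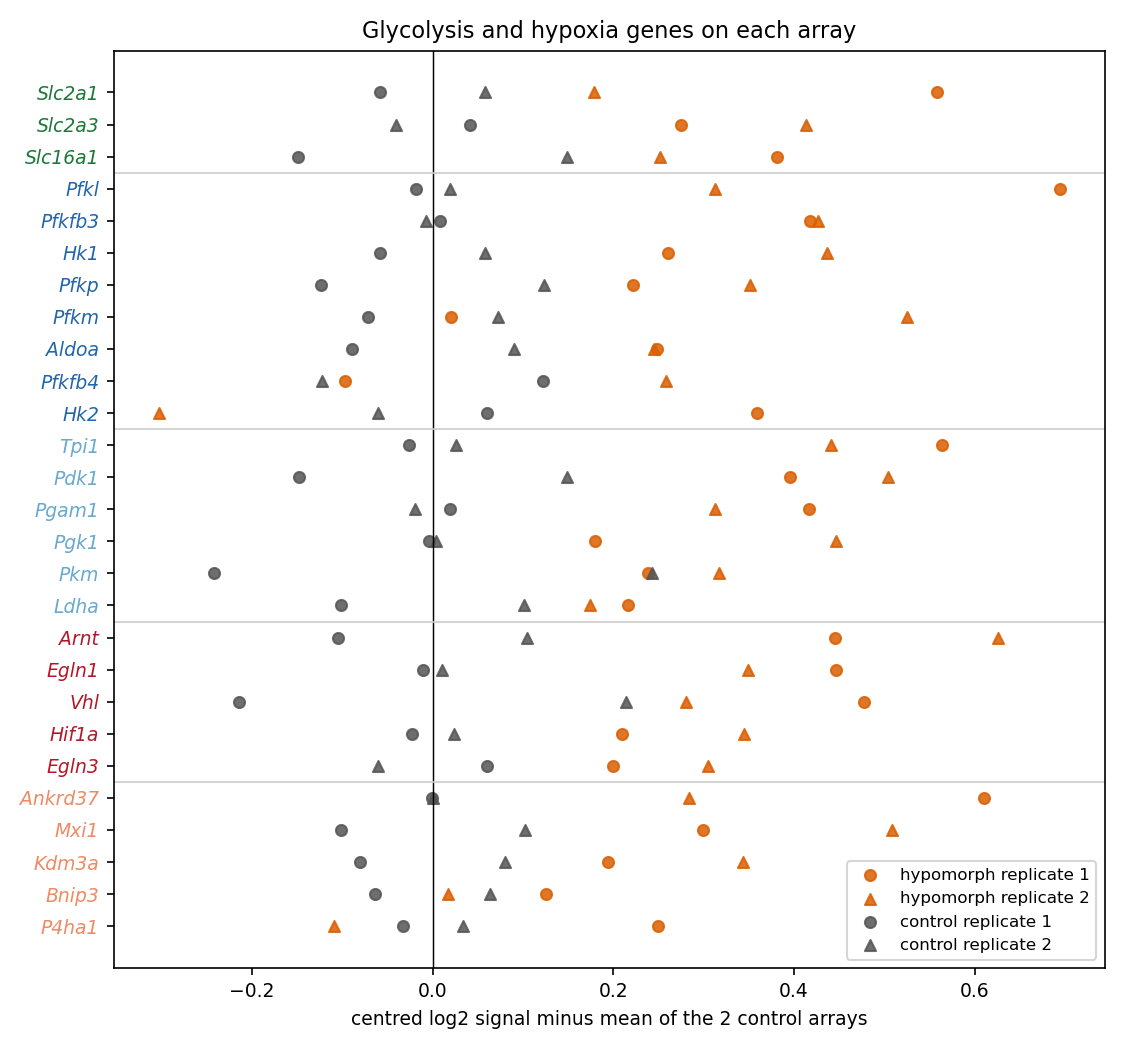
Centred log2 signal on each of the 4 arrays minus the mean of the 2 control arrays (horizontal axis) for the 27 tested genes (rows, label colour by role: transport, upper glycolysis, lower glycolysis and pyruvate fate, HIF pathway, HIF targets, from top to bottom). Orange points are hypomorph and grey points control arrays, circles replicate 1 and triangles replicate 2, and the groups overlap for 6 genes, Pfkm, Pfkfb4, Hk2, Pkm, Bnip3 and P4ha1.

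Glucose and lactate transporters came first in the pathway. Slc2a1 encodes GLUT1, the glucose carrier of dividing cells, and had centred log2 signals of 7.78 and 7.40 in the hypomorphs against 7.16 and 7.28 in the controls. Hypomorph replicate 1 stood apart from the other 3 arrays, and the groups did not overlap. The log2 change was 0.37 ± 0.19 (limma, adjusted p 0.339), and without hypomorph replicate 1 it was 0.18, below the median of all tested genes. Slc2a3, the gene of the high-affinity carrier GLUT3, had 8.14 and 8.28 against 7.91 and 7.82, a log2 change of 0.34 ± 0.15 (adjusted p 0.300). Here both hypomorph arrays were higher than both controls. On its other tested probe set, which was 1.23-fold higher, the groups overlapped.

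Lactate leaves or enters the cell through monocarboxylate carriers. Slc16a1, which encodes MCT1, had log2 signals of 10.44 and 10.31 in the hypomorphs against 9.91 and 10.21 in the controls, with a log2 change of 0.32 ± 0.14 (adjusted p 0.310). Its control arrays lay further apart than its groups' nearest arrays. Slc16a3, the gene of the lactate exporter MCT4, was dim, at deposited signals of 5.03 and 4.19 in the hypomorphs against 9.6 and 11.3 in the controls. Both hypomorph arrays were the lower ones, and without the filter its log2 change was -1.21 (adjusted p 0.478). The 3 tested transporters lay 0.11 to 0.16 above the median of all tested genes.

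The first steps of glycolysis trap and split glucose. Hexokinases phosphorylate it, and the isoforms Hk1 and Hk2 differed in their values. Hk1, the widely expressed isoform, had log2 signals of 9.001 and 9.18 in the hypomorphs against 8.68 and 8.80 in the controls, a log2 change of 0.35 ± 0.14 (adjusted p 0.283). Hk2, the inducible isoform and a HIF target, had 6.51 and 5.85 against 6.22 and 6.10, so that its hypomorph arrays were the highest and the lowest of the 4. Its log2 change was 0.03 with a 95% confidence interval of -0.57 to 0.62, and it was -0.30 without hypomorph replicate 1 and 0.36 without hypomorph replicate 2. The difference between the isoforms was not tested.

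Phosphofructokinase commits the sugar to glycolysis and is built from liver, muscle and platelet subunits. Pfkl, the liver subunit, had the second largest change of the 27 genes, with log2 signals of 8.15 and 7.77 in the hypomorphs against 7.44 and 7.48 in the controls. This amounts to a log2 change of 0.50 ± 0.18, or 1.42-fold (adjusted p 0.254), and its other 2 tested probe sets were 1.26- and 1.41-fold higher. Pfkp, the platelet subunit, had 8.94 and 9.07 against 8.59 and 8.84 (log2 change 0.29 ± 0.14, adjusted p 0.339), and of its other probe sets 1 was 1.28-fold higher and 1 was at 0.910-fold. Pfkm, the muscle subunit, had 7.34 and 7.84 against 7.25 and 7.39, where hypomorph replicate 1 lay between the controls, and its log2 change of 0.27 ± 0.20 (adjusted p 0.484) was 0.02 without hypomorph replicate 2. All 3 subunits thus lay above the median of the tested genes with all arrays, by 0.29, 0.08 and 0.06, and the hypomorph array that was higher was replicate 1 for Pfkl and replicate 2 for the others.

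Fructose-2,6-bisphosphate, the strongest activator of phosphofructokinase, is set by the PFKFB enzymes. Pfkfb3 had nearly equal replicates, at 6.91 and 6.92 in the hypomorphs against 6.497 and 6.48 in the controls, and a log2 change of 0.42 ± 0.20 (adjusted p 0.316). Its other probe set was below the filter and had a log2 difference of the opposite sign. Pfkfb4 had 6.26 and 6.61 against 6.48 and 6.23, so that the groups overlapped, and a log2 change of 0.08 with a confidence interval of -0.43 to 0.59. Aldolase then splits the sugar. Aldoa, the main isoform outside liver and brain, had 9.69 and 9.69 against 9.35 and 9.53, a log2 change of 0.25 ± 0.13 (adjusted p 0.360), which is 0.04 above the median of all tested genes. Its other 4 probe sets were 1.09- to 1.47-fold higher, the lowest of them at -0.09 relative to that median. Aldoc was dim, at deposited signals of 41.4 and 23.8 in the hypomorphs against 5.04 and 25 in the controls, with control replicate 1 far below the other 3 arrays.

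The lower part of the pathway yields ATP and pyruvate. Tpi1 encodes triosephosphate isomerase, which interconverts the 2 products of aldolase, and had the smallest p of all 27 genes. Its log2 signals were 9.54 and 9.41 in the hypomorphs against 8.95 and 8.998 in the controls, so the gap between the groups was wider than that between replicates. The log2 change was 0.50 ± 0.13, or 1.42-fold, with an unadjusted p of 0.00286 and an adjusted p of 0.213 in limma, within a range of 0.102 to 0.734 over the alternatives. Its other probe sets were 1.43- and 1.57-fold higher. Tpi1 lay 0.29 above the median of all tested genes, and the 95% confidence interval of its change was 0.21 to 0.79.

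Pgk1 and Pgam1, the kinase and mutase that follow, were closer to the bulk of genes. Pgk1 had 10.88 and 11.14 against 10.69 and 10.70 (log2 change 0.31 ± 0.14, adjusted p 0.309), with control arrays that were nearly equal. Its other probe sets were 1.23- and 1.09-fold higher. The groups overlapped on the latter, which stood at -0.09 relative to the median of all tested genes. Pgam1 had 9.16 and 9.05 against 8.76 and 8.72 (log2 change 0.36 ± 0.13, adjusted p 0.265). By their brightest probe sets, Pgk1 and Pgam1 stood 0.10 and 0.15 above the median. Gapdh, the dehydrogenase that acts just before Pgk1, was read from 3 control probe sets along its transcript, where the one with the highest signal had 12.41 and 12.56 in the hypomorphs against 12.31 and 12.39 in the controls. The 3 were 1.09- to 1.12-fold higher, which lies 0.05 to 0.08 below the median change of the tested genes on the log2 scale. Gapdh has many pseudogenes, and 3 further probe sets that name it carry their symbols too.

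Pyruvate is made by Pkm, reduced by Ldha and kept from oxidation by Pdk1. Pkm, pyruvate kinase, had 10.17 and 10.25 against 9.69 and 10.18, where control replicate 2 was level with the hypomorph arrays, and its log2 change of 0.28 ± 0.16 (adjusted p 0.398) was 0.04 without control replicate 1. Ldha, lactate dehydrogenase A, had 11.25 and 11.21 against 10.93 and 11.14, a log2 change of 0.20 ± 0.14 (adjusted p 0.476), just below the median of all tested genes at -0.02 relative to it. Pdk1, the HIF-induced kinase that switches off pyruvate dehydrogenase, had 10.18 and 10.29 against 9.64 and 9.93. The groups did not overlap, and the log2 change was 0.45 ± 0.14, or 1.37-fold (unadjusted p 0.00933, adjusted p 0.245). Its other 3 probe sets were 1.34- to 1.37-fold higher, the closest agreement among the genes with over 3 tested probe sets.

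All 5 genes of the HIF pathway, read from their brightest probe sets, lay above the median of the tested genes. On these probe sets both hypomorph arrays were higher than both controls in all 5, as they were for 51.7% of all tested genes. Further tested probe sets of Arnt, Egln1 and Vhl lay below that median with groups that overlapped, while 1 other of Arnt and those of Hif1a and Egln3 lay above it. Hif1a encodes the oxygen-regulated subunit HIF-1 alpha, which is controlled mainly through its protein. Its log2 signals were 10.24 and 10.37 in the hypomorphs against 10.003 and 10.05 in the controls, a log2 change of 0.28 ± 0.13 (adjusted p 0.317), and its other 2 tested probe sets were 1.37- and 1.34-fold higher. Arnt, the gene of the partner HIF-1 beta, had the largest change of the 27, at 7.23 and 7.41 against 6.68 and 6.89 (log2 change 0.54 ± 0.19, or 1.45-fold, adjusted p 0.255). Its other probe sets differed in their values. Of the other 3 that were tested, 1 was 1.30-fold higher and a pair lay at 1.00 and 1.05, so the largest change of the group rests on 1 probe set.

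The oxygen sensors and the ligase behind them had similar values. Egln1 encodes PHD2, the main HIF prolyl hydroxylase, and had 8.74 and 8.65 in the hypomorphs against 8.29 and 8.31 in the controls (log2 change 0.40 ± 0.14, adjusted p 0.254). Its other probe set was 1.14-fold higher, with groups that overlapped, and stood at -0.03 relative to the median of all tested genes. Egln3, which encodes PHD3 and is itself induced by HIF, had 7.60 and 7.70 against 7.46 and 7.33 (log2 change 0.25 ± 0.16, adjusted p 0.440). Vhl, the substrate receptor of the ligase that destroys HIF alpha subunits, had 7.60 and 7.40 against 6.91 and 7.34, with control replicate 1 below the other 3 arrays. Its log2 change of 0.38 ± 0.20 (adjusted p 0.348) was 0.16 without that array, and its other probe set was at 0.909-fold.

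Of the 5 tested HIF targets 3 lay above the median of all tested genes and a pair below. Ankrd37, an ankyrin repeat gene strongly induced by hypoxia, had log2 signals of 7.34 and 7.02 in the hypomorphs and 6.73 on both control arrays (log2 change 0.45 ± 0.20, or 1.36-fold, adjusted p 0.302). Mxi1, a MYC antagonist, had 8.75 and 8.96 against 8.35 and 8.55 (log2 change 0.40 ± 0.15, adjusted p 0.265). Its other probe set was 1.12-fold higher, which is -0.05 relative to the median of all tested genes. Kdm3a, a histone demethylase, had 10.06 and 10.21 against 9.79 and 9.95 (log2 change 0.27 ± 0.13, adjusted p 0.337), which is 0.06 above the median. In each of these both hypomorph arrays lay above both controls, as they did for 51.7% of all tested genes.

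Bnip3 and P4ha1 had changes close to 0. Bnip3, a mitophagy receptor, had 5.75 and 5.64 against 5.56 and 5.69, a log2 change of 0.07 with a confidence interval of -0.52 to 0.66. P4ha1, a collagen prolyl hydroxylase subunit, had 7.72 and 7.36 against 7.43 and 7.5003, with its hypomorph arrays the highest and the lowest of the 4, and a log2 change of 0.07 with an interval of -0.33 to 0.47, while its other probe set was 1.31-fold higher. Relative to all tested genes both stood at -0.14. Vegfa, the vascular growth factor, was dim, with deposited signals of 5.9 and 25.7 in the hypomorphs against 30.8 and 5.48 in the controls, and the high and low arrays did not follow the groups.

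**Figure D3:**
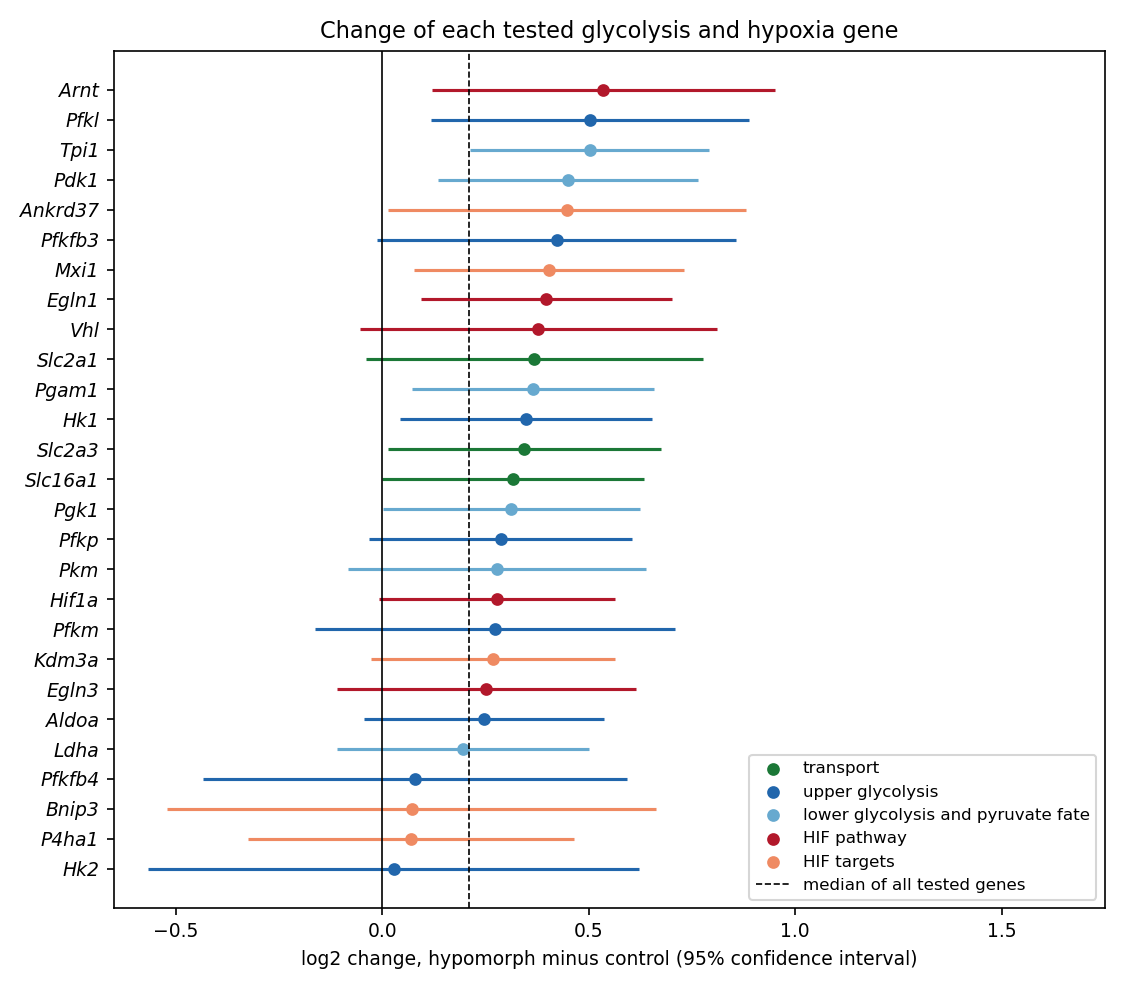
Log2 change, hypomorph minus control (horizontal axis), with its 95% confidence interval from limma for the 27 tested genes (rows, in order of change, coloured by role). The dashed line is the median of all tested genes at 0.21, and 22 of the 27 points lie to its right, with Ldha, Pfkfb4, Bnip3, P4ha1 and Hk2 to its left.

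Most genes had more than 1 probe set, which serves as a check within the same arrays. Of the 27 tested genes, 16 had a total of 29 further tested probe sets. Of these, 27 had the same sign as the brightest one, and 27 differed from it by less than 0.5 on the log2 scale, but only 21 lay above the median change of all tested genes. In 8 of the 16 genes all probe sets lay on the same side of that median. The brightest probe sets of Tpi1, Pgk1 and Aldoa have the suffix x, by which Affymetrix marks probes that may also match other transcripts.

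Neighbouring pathways were described in the same way. The pentose phosphate pathway branches from glucose 6-phosphate and supplies NADPH and ribose. Of its 7 genes 6 could be read, and all 6 lay above the median of the tested genes, by a median of 0.08, and none was called. The largest was Pgls, the lactonase of its second step, at a log2 change of 0.47 (adjusted p 0.242), followed in p by Taldo1 at 0.29 (adjusted p 0.303) and Tkt at 0.29 (adjusted p 0.343), the enzymes of its non-oxidative arm. Of 12 tested genes for other isoforms and pyruvate oxidation, 6 lay above and 6 below the median, with a median of 0.02 relative to it. There, Pdha1 and Pdhb, subunits of the enzyme that Pdk1 inhibits, had log2 changes of 0.31 and 0.28 (adjusted p 0.323 and 0.333), and the intracellular glucose carrier gene Slc2a8 had -1.06 (adjusted p 0.290). Slc2a8 was dim, at deposited signals of 41.9 and 10.5 in the hypomorphs against 32.4 and 42.5 in the controls, with hypomorph replicate 2 far below the other arrays. Of 7 gluconeogenesis genes only Pck2 was bright enough to be tested, at a log2 change of 0.08 (adjusted p 0.905).

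Other genes of the HIF pathway were described by the same counts, and their difference from the 5 above was not tested. Of 11 tested, 4 lay above and 7 below the median of the tested genes, with a median of -0.02 relative to it and none called. Ube2d1, which encodes a ubiquitin-conjugating enzyme, had the smallest p at a log2 change of 0.43 (adjusted p 0.271), followed by Elob, a subunit of the VHL ligase, at 0.29 (adjusted p 0.321), and Hif1an, the asparaginyl hydroxylase that blocks HIF activity, at 0.38 (adjusted p 0.367). Of 9 other tested HIF targets 6 lay above the median and 3 below, with a median of 0.16. The smallest p-values among them were for the transferrin receptor gene Tfrc (log2 change 0.53, adjusted p 0.208), Plod1, a collagen lysyl hydroxylase (0.61, adjusted p 0.286), and the mitochondrial gene Higd1a (0.32, adjusted p 0.297). Among 3 tested genes that drive or restrain glycolysis, Mlxip, a glucose-sensing transcription factor, was at 0.33 (adjusted p 0.294), Myc at -0.09 (adjusted p 0.795) and Txnip, which limits glucose uptake, at 0.02 (adjusted p 0.959).

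**Figure D4:**
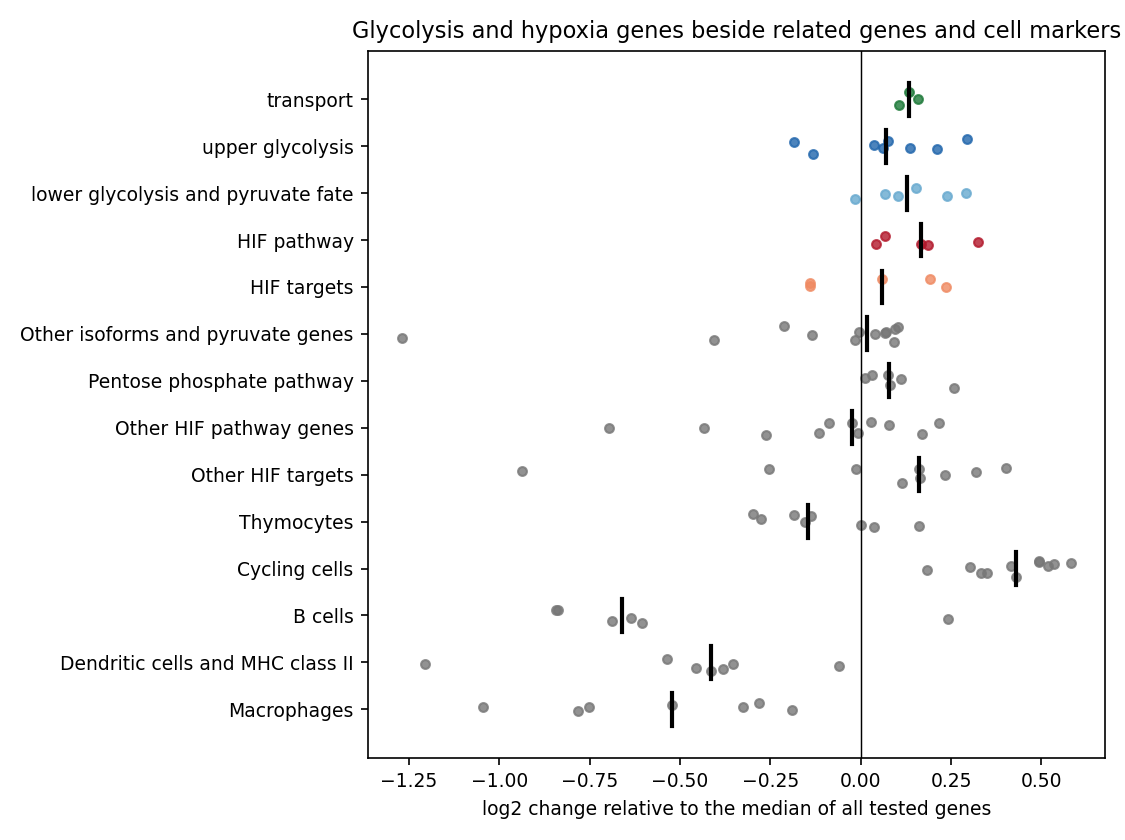
Log2 change relative to the median of all tested genes (horizontal axis) for each tested gene of the 5 role groups (coloured points), related gene lists and cell marker lists (grey points), with the median of each list as a black bar. Transport and HIF pathway genes all lie right of 0, with medians of 0.13 and 0.17, cycling cell genes lie further right at 0.43, and the medians of B cell, dendritic cell and macrophage genes lie left at -0.66, -0.41 and -0.52, with the B cell gene Pax5 on the right at 0.24. Granulocyte genes, with a median of 0.28, are not drawn.

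Markers of cell states and of other cell types were read on the same arrays, and none was called. Of 12 genes of cycling cells 11 could be read and all 11 lay above the median, by 0.18 to 0.58, with a median of 0.43. Their adjusted p was 0.125 to 0.252. Their summed centred signals were 14280 and 14865 in the hypomorphs against 9493 and 10177 in the controls. Those of the 30 glycolysis and hypoxia genes with an ordinary probe set were 16491 and 17018 against 12790 and 14272. The same sums over all tested genes were also higher in the hypomorphs, at 4708860 and 5104660 against 4187800 and 4449510, and the sums here are not corrected for that. The 8 thymocyte markers summed to 28668 and 32752 against 27967 and 32150, with overlapping groups. The 6 B cell genes that could be read summed to 447 and 463 against 559 and 685, the 8 dendritic cell and MHC class II genes to 3319 and 3391 against 4206 and 3802, and the 8 macrophage genes to 894 and 754 against 909 and 1062. Granulocyte genes varied between animals, at 2200 and 3672 against 642 and 5774. Lyz2, the brightest of the macrophage genes, ranked the arrays in the same order, and its groups overlapped. Its centred log2 signals were 8.34 and 8.70 in the hypomorphs against 8.20 and 9.07 in the controls. Of the 7 tested macrophage genes, 2 had both hypomorph arrays below both controls, as did 4.90% of all tested genes. Erythroid genes, of which 4 of 7 could be read, summed to 144 and 205 against 130 and 172, endothelial genes to 236 and 233 against 215 and 213, thymic epithelial genes to 150 and 100 against 137 and 141, and adipocyte genes to 29.2 and 33.0 against 25.9 and 46.4. Only Car2 of the erythroid and Pecam1 of the endothelial genes were bright enough to be tested. The log2 change of Pecam1, 0.21, was level with the median of all tested genes. The part of cycling cells or of any other cell type in the values of the glycolysis and hypoxia genes was not tested, and in bulk RNA fewer cells of a type and less RNA per cell cannot be told apart.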

How the data were processed

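Biotin-labelled RNA of thymocytes, extracted on Qiagen columns, was measured on Affymetrix arrays, per the labels' protocols. The authors deposited an intensity on a linear scale for each probe set, made with GCOS, per the submitters' processing notes, whose version and scaling target were not stated. Affymetrix control probe sets (64) were left out, which left 45037. To each signal 2.29 was added, the 10th percentile of all of them, before log2 was taken, so fold changes of dim genes are understated. Arrays were centred on their common median. Probe sets with a mean log2 value at or above the median, 22519 in number, were compared between the groups by limma 3.58.1 (R 4.3.3, moderated test with a mean-variance trend, two-sided), with Benjamini-Hochberg adjustment over all of them and a threshold of 0.05. Sex was no covariate, since it was not assigned to arrays. A gene was named from a probe set only if the platform annotation gave that set 1 symbol. Alternatives changed the scaling, pseudocount, filter, variance model, summary of probe sets, replicate block and arrays used. The genes and lists were chosen with earlier results of these data known, so no list was tested. Of related lists, the genes with the 3 smallest p-values were named. The model was tested on simulated data, where it recovered few changes of 1.5-fold. A gene that was not called may thus still have changed.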

Additional observations from a re-analysis of the deposited data

How the results depend on the processing

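No glycolysis or hypoxia gene was called under any of the 14 alternatives. Between 20 and 24 of 27 genes lay above the median of all tested genes, 24 of 30 without the filter and 19 of 21 with the filter set at percentile 75. Relative to genes of similar mean signal, a comparison chosen after seeing the data, it was 23 of 27. The median relative to all tested genes, 0.11, became 0.074 with quantile normalization, 0.12 with a pseudocount of 8.44, 0.17 without the filter, 0.081 with the stricter filter, and 0.060 to 0.14 when single arrays were left out. Genes with both hypomorph arrays above both controls numbered 9 with quantile normalization (21.1% of all tested genes) and 13 with centring on tested probe sets (24.1%), in place of 21 (51.7%). Of 372 single-gene values under the alternatives 13 had the opposite sign, all of 4 genes with changes near 0. More genes changed sides relative to the median of all tested genes. Ldha did so under 5 alternatives, Aldoa under 3, Pfkfb4 and P4ha1 under 2 each, and others, such as Slc2a1 and Vhl, under 1. With quantile normalization and with centring on tested probe sets the log2 changes were -0.095 and -0.15 for Hk2, -0.053 and -0.094 for Pfkfb4, -0.0021 and -0.10 for Bnip3, and -0.12 and -0.10 for P4ha1. With single arrays left out they were -0.30 to 0.36 for Hk2, -0.10 to 0.26 for Pfkfb4 and -0.11 to 0.25 for P4ha1. The call of Atg16l1 was lost without centring (log2 change -1.25, adjusted p 0.114), and at a log2 change of -1.57 without the filter (adjusted p 0.0596) and without the variance trend (adjusted p 0.274). With single arrays left out its change was -1.66 to -1.48. It fell below the stricter filter, which gave no value. The cause was not tested. Nothing in the labels says that replicate numbers pair the animals, and same-numbered deviations correlated at 0.08. With the replicate block limma called 9 probe sets in place of 14, none of them a glycolysis or hypoxia gene, and Atg16l1 kept its call (log2 change -1.57, adjusted p 0.0355). Probe sets called numbered 4 with quantile normalization, 7 with centring on tested probe sets, 84 without centring, 4 without the filter and 0 without the variance trend (2492 at an unadjusted p under 0.05), and 8 to 340 with single arrays left out.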
